A study of Mus musculus with 9 samples.

Results

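Transcripts of 10 inflammatory chemokine genes were followed in CD4+ T cell sorts from the inflamed mouse colon. The genes were chosen by symbol as chemokines that myeloid and stromal cells make: CXCL9, CXCL10, CXCL16, CXCL2, CCL2, CCL6, CCL7, CCL8, CCL9 and CCL12, written in capitals as in the deposited table. All 10 were found among the 23415 genes of the table. In this model of colitis, naive CD4+ CD45RBhigh T cells from CD160 knockout mice or from their wildtype littermates were injected into Rag1-/- hosts, which lack T and B cells and keep their own myeloid and stromal cells. The hosts of both groups thus carried the Rag1 deletion, and the genotype differed only in the transferred cells as far as the labels say. At the peak of disease 5000 CD4+ T cells of the colonic lamina propria went into each library, which gave 4 knockout and 5 control libraries of full-length cDNA. The labels do not say whether each library came from its own host, so the spread below is that between libraries. They give neither the age of the animals nor the deleted part of Cd160.

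Chemokines are small secreted proteins that guide leukocytes through receptors coupled to G proteins. CXCL9 and CXCL10 are induced by interferon gamma and attract T cells through CXCR3, CXCL16 is a membrane-bound chemokine that can be shed and binds CXCR6, and CXCL2 draws neutrophils through CXCR2. CCL2, CCL7 and CCL12 recruit monocytes through CCR2, mouse CCL8 acts on CCR8, and CCL6 and CCL9 act on myeloid cells through CCR1. In the inflamed colon macrophages, monocytes and fibroblasts are well-known sources of these proteins, while T cells carry several of the receptors.

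The deposited values are TPM, a length-corrected measure of each transcript's share of the library, and the depth behind them is unknown. CD160 stood between 5.44 and 18.8 TPM in the knockout and between 31.8 and 212.4 TPM in the control libraries, lower in each knockout than in any control. A TDTOMATO entry, a reporter that the labels do not mention, had 2.52 to 8.78 TPM in the controls and was listed at 0 in every one of the 4 knockouts. Control replicate 1 stood apart, with 7308 genes at 1 TPM or more against 11088 to 11711 in the other libraries, so results are given with it and without it. T cell genes were abundant: the 8 T cell markers CD3D, CD3E, CD3G, CD4, CD2, CD5, LCK and TRAC summed to 4488 to 5703 TPM in knockout libraries, 5381 to 6418 TPM in control replicates 2 to 5 and 1889 TPM in control replicate 1. Macrophage transcripts were also present at high levels in these sorts, as given with the results below.

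The genes lie on mouse chromosomes 5 and 11 (GRCm38, GENCODE annotation). CXCL2 (chr5:90903871-90905938), CXCL9 (chr5:92321347-92328079) and CXCL10 (chr5:92346638-92348889) share chromosome 5. CCL2 (chr11:82035571-82037453), CCL7 (chr11:82045712-82047525), CCL12 (chr11:82101845-82103400) and CCL8 (chr11:82115185-82116799) are neighbours on chromosome 11. CCL9 (chr11:83572919-83578636) and CCL6 (chr11:83587882-83593087) form a second neighbouring pair there, and CXCL16 (chr11:70453983-70459984) lies apart. RefSeq promoter windows of GRCm38.p6, from 250 bases before to 50 after the start, were matched for 7 of the 10 genes and searched on both strands. The motifs were the interferon response element GAAANNGAAA, the gamma-activated sequence TTCNNNGAA, the NF-kappa-B consensus and the TATA box TATAAA. Of all 32851 windows, 3.44%, 8.3%, 8.46% and 13.6% hold a match, in that order. The windows of CXCL2 and CXCL10 are shown because these genes had their highest value of all libraries in knockout replicate 1. Those of CCL12 and CCL8 are shown because these genes had their lowest value there, so the choice rests on 1 library. Capitals mark the matches, and the 250 bases before the start are printed 5′ to 3′ on the gene's strand.
CXCL2, chr5:90903649-90903898, plus strand: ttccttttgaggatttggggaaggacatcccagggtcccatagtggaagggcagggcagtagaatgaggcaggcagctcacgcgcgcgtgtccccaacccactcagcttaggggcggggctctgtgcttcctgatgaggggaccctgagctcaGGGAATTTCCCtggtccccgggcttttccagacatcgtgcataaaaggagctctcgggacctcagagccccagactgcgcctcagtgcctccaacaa
CXCL10, chr5:92348890-92349139, minus strand: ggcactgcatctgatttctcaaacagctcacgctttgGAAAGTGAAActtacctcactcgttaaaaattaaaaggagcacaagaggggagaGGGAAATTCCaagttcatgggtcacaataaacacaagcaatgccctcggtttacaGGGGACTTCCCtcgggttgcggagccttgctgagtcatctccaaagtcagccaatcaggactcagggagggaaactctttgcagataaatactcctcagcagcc
CCL12, chr11:82101595-82101844, plus strand: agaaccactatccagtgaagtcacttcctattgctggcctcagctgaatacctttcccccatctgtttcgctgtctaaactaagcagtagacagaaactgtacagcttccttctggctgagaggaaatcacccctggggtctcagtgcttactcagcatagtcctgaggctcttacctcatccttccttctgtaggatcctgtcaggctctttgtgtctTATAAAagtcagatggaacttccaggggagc
CCL8, chr11:82114935-82115184, plus strand: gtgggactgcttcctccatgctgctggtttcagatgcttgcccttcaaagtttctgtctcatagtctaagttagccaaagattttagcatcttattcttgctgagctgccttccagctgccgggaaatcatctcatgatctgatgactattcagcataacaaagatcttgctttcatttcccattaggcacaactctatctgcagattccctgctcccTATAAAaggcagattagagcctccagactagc

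The CXCL2 window holds 2 overlapping NF-kappa-B matches within bases -97 to -87. In the CXCL10 window an interferon response element stands at -213 to -204 and NF-kappa-B matches stand at -159 to -150 and, overlapping each other, at -104 to -94. CCL12 and CCL8 have a TATA box at -31 to -26 and -32 to -27 and no match to the other motifs. CCL9 holds an NF-kappa-B match at -35 to -26 and 3 TATA matches, of which those at -94 to -89 and -92 to -87 overlap. CXCL9 holds a TATA match at -195 to -190, and CCL6 none of the 4 motifs. The gamma-activated sequence was matched in none of these 7 windows. A match describes letters only, and binding was not measured.

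All 10 chemokines had a higher mean in the knockout libraries, with ratios of mean TPM between 2.11 for CCL8 and 3.87 for CCL2, and none passed the adjusted threshold. All 10 passed the filter of 1 TPM in 4 libraries, and on the log2(TPM + 1) scale all 10 differences of limma were above 0, where 86.7% of all 11495 tested genes were. Without control replicate 1 all 10 were again above 0, against 47.5% of 11457 genes. The sign was the same under other scalings but the size was not: with all libraries the 10 differences ran from 0.107 for CCL8 to 1.44 for CCL6 after median-of-ratios scaling, and from 0.49 for CCL12 to 1.85 for CCL6 after quantile normalization. The median of the 10 differences was 1.47 with all libraries, when the median of all genes was 0.456, and 1.23 without control replicate 1, when that of all genes was -0.0138. Under median-of-ratios scaling of all libraries the medians were 0.858 and 0.00458. At an adjusted p of 0.05, 0 of the 10 were called (0.0174% of all genes), and 0 without control replicate 1 (0.0262%). The lowest adjusted p values among them were 0.585 and 0.131 in these fits, both for CCL6. At an unadjusted p under 0.05 there were 6 of the 10, all with a higher knockout mean, against 5.78% of all genes with such a p and direction. That number was 1 with median-of-ratios scaling and 3 with quantile normalization of all libraries. Of all 11495 genes, 786 and 959 had an unadjusted p under 0.05 in these fits, in either direction. The same 6, CXCL9, CXCL10, CXCL16, CCL2, CCL6 and CCL9, were found without control replicate 1, against 8.44% of genes.

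**Figure D1:**
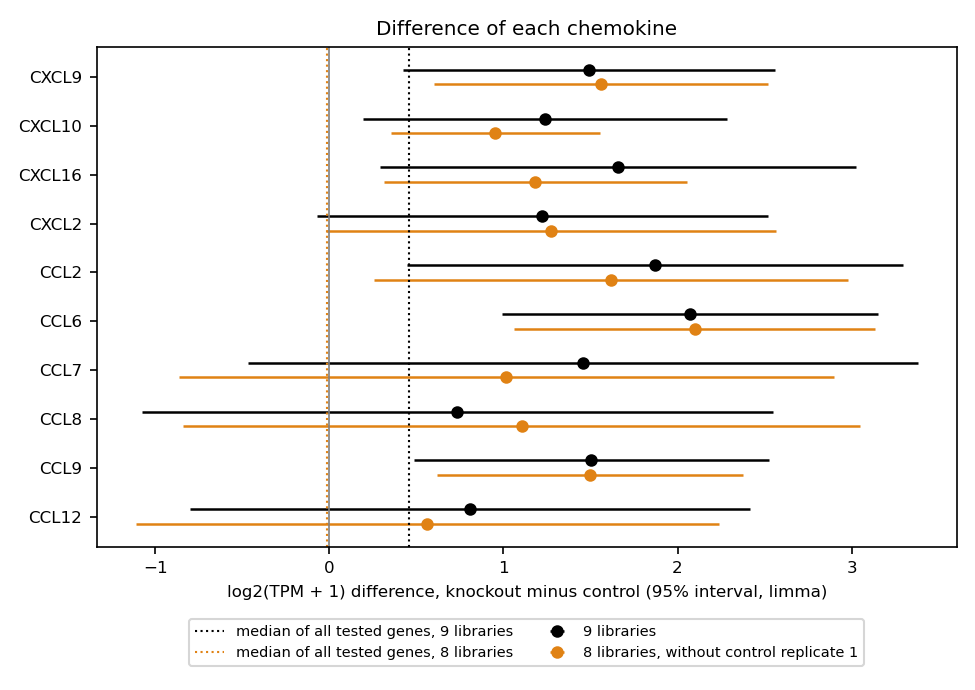
Log2(TPM + 1) difference of each chemokine, knockout minus control, with the 95% interval of limma, from all 9 libraries and from the 8 without control replicate 1. Every point lies above 0 and above the dotted median of all tested genes; intervals of CXCL2, CCL7, CCL8 and CCL12 include 0 in both fits.

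CCL6, CCL9 and CXCL9 were higher in each knockout library than in any control library, the only 3 of the 10 with no overlap. Such genes made up 3.88% of all tested genes, and 4.01% without control replicate 1, where the same 3 chemokines had no overlap. The number depends on single libraries. It was 6 without knockout replicate 1, when CCL2, CCL7 and CCL12 joined, in a fit where 1123 of 11421 genes did not overlap in this direction. It was also 6 without control replicate 2, when CXCL10, CXCL16 and CXCL2 joined, with 769 of 11410 genes. Median-of-ratios scaling, which divides the TPM of control replicate 1 by 0.149 and those of the others by 1.13 to 1.41, left 0 of the 10 with no overlap, and 230 genes in all. When that scaling was used without control replicate 1, CCL6 and CXCL9 had no overlap and CCL9 did.

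CCL6, a CCR1 ligand that macrophages make, had the largest log2 difference of the 10. Knockout replicates 1 to 4 held 183.0, 187.0, 289.6 and 336.0 TPM, and control replicates 1 to 5 held 60.8, 101.1, 27.4, 102.4 and 32.6 TPM. The lowest knockout value was thus above the highest control value of 102.4 TPM. The group means of CCL6 were 248.9 ± 76.2 and 64.8 ± 36.0 TPM (SD, n = 4 and 5), a log2 difference of 2.07 ± 0.49 (standard error, SE; limma adjusted p = 0.585). Leaving out control replicate 1 gave 2.10 ± 0.46 (SE; limma adjusted p = 0.131).

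CCL9, the neighbour of CCL6 on chromosome 11 and also a CCR1 ligand, was lower in level. In replicate order the 4 knockouts had 33.8, 24.6, 28.2 and 43.0 TPM of CCL9 and the 5 controls 10.4, 21.5, 6.91, 14.8 and 5.39 TPM. The closest values of the groups were 21.5 TPM in control replicate 2 and 24.6 TPM in knockout replicate 2. Mean CCL9 was 32.4 ± 8.01 against 11.8 ± 6.53 TPM (SD, n = 4 and 5), a log2 difference of 1.503 ± 0.46 (SE; limma adjusted p = 0.598), and 1.497 ± 0.39 (SE; limma adjusted p = 0.173) without control replicate 1.

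**Figure D2:**
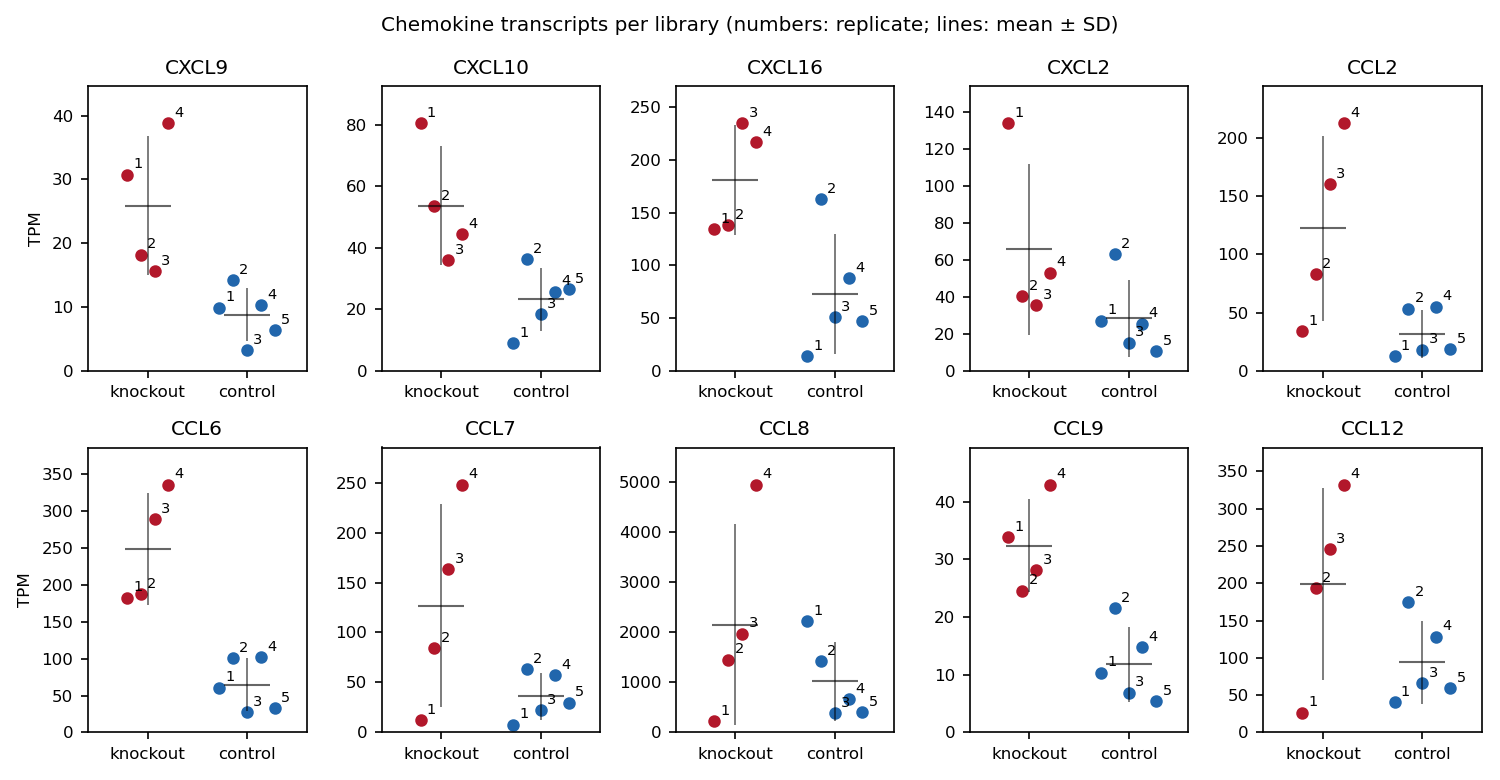
TPM of each chemokine per library, knockout in red and control in blue, with the replicate number beside each point and lines for mean ± SD (n = 4 and 5). CCL6, CCL9 and CXCL9 show no overlap between groups, and knockout replicate 1 is the lowest of all libraries for CCL8 and CCL12.

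The ligands of CXCR3 were the next group. CXCL9, the least abundant of the 10, measured 30.8, 18.2, 15.7 and 38.8 TPM across the knockouts and 9.92, 14.2, 3.22, 10.3 and 6.34 TPM across the controls. Its groups were separated by a narrow gap, between 15.7 TPM in knockout replicate 3 and 14.2 TPM in control replicate 2. Means of 25.9 ± 10.9 and 8.81 ± 4.19 TPM (SD, n = 4 and 5) gave CXCL9 a log2 difference of 1.49 ± 0.48 (SE; limma adjusted p = 0.598), or 1.56 ± 0.42 (SE; limma adjusted p = 0.183) in the 8 libraries without control replicate 1.

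CXCL10 reached 80.6, 53.7, 36.1 and 44.6 TPM across the knockouts and 9.15, 36.3, 18.5, 25.8 and 26.5 TPM across the controls. The groups met at 36.1 TPM in knockout replicate 3 and 36.3 TPM in control replicate 2, with every other knockout library above every control. Mean CXCL10 was 53.7 ± 19.3 against 23.2 ± 10.1 TPM (SD, n = 4 and 5). The log2 difference was 1.24 ± 0.47 (SE; limma adjusted p = 0.682), and 0.95 ± 0.27 (SE; limma adjusted p = 0.185) without control replicate 1, which held the lowest level. CXCL10 was above CXCL9 in each of the 8 other libraries, but not in control replicate 1.

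CXCL16, the CXCR6 ligand, measured 134.5, 138.2, 234.7 and 216.6 TPM across the knockouts. The controls measured 14, 162.9, 50.9, 87.9 and 47.1 TPM, so that control replicate 2 lay above 2 knockout libraries and the other four lay below all of them. Mean CXCL16 was 181.0 ± 52.1 against 72.6 ± 56.9 TPM (SD, n = 4 and 5), a log2 difference of 1.66 ± 0.62 (SE; limma adjusted p = 0.674), which became 1.18 ± 0.38 (SE; limma adjusted p = 0.245) without control replicate 1. The value of CXCL16 is uncertain, since 17.9% of the 38-base words of its transcripts, the length of 1 sequencing read, also occur in transcripts of the overlapping gene ZMYND15. ZMYND15 itself was listed at 9.80 to 34.4 TPM in the knockout libraries and at 2.00 to 21.7 TPM in the controls. For CXCL2 this share was 6.65%, with CXCL3, and for CXCL10 4.14%, with ART3, both at 6.70 TPM or less in all libraries. It was 3.09% for CCL9, over 1187 other genes, 0.574% for CXCL9, over 194, and 0.627% for CCL6, with SLC17A4. CCL2, CCL7, CCL8 and CCL12 shared no word with any other gene.

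CXCL2, which attracts neutrophils, was highest in knockout replicate 1, at 133.8 TPM, with 40.2, 35.5 and 53.1 TPM in knockout replicates 2 to 4. The controls held 27.2, 63.2, 15.3, 25.5 and 10.6 TPM, and control replicate 2 exceeded 3 of the 4 knockout libraries. Means of 65.65 ± 46.05 and 28.4 ± 20.7 TPM (SD, n = 4 and 5) gave a log2 difference of 1.22 ± 0.59 (SE; limma adjusted p = 0.745), and 1.27 ± 0.57 (SE; limma adjusted p = 0.396) without control replicate 1. It was 0.81 without knockout replicate 1 and 0.59 with median-of-ratios scaling.

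The chromosome 11 neighbours CCL2, CCL7, CCL12 and CCL8 had the widest spread among the knockout libraries, most of it set by knockout replicate 1. In all 4 genes, and in CCL6, the order was knockout replicate 4, 3, 2 and 1 from high to low. The highest knockout value was 6.22 times the lowest for CCL2, 20.5 times for CCL7, 12.5 times for CCL12 and 22.6 times for CCL8, against 1.75 to 3.77 times for the other six. In knockout replicates 2 to 4 the ratios were 2.56 for CCL2, 2.93 for CCL7, 1.72 for CCL12 and 3.41 for CCL8, with 2.48 for CXCL9, a calculation added after the values were seen. Among control replicates 2 to 5 the ratio lay between 2.81 and 3.68 for these 4 genes and between 1.96 and 5.97 for the other six.

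CCL2, the main monocyte attractant of the group, measured 34.2, 83.1, 160.1 and 212.5 TPM across the knockouts against 12.7, 53.4, 18.3, 55.2 and 18.4 TPM across the controls. Only knockout replicate 1 fell within the control range. With means of 122.5 ± 79.3 and 31.6 ± 20.9 TPM (SD, n = 4 and 5), its log2 difference was 1.87 ± 0.65 (SE; limma adjusted p = 0.651). The fit of 8 libraries gave 1.62 ± 0.60 (SE; limma adjusted p = 0.302).

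CCL7 showed the same arrangement, at 12.1, 84.7, 163.1 and 248.0 TPM in the knockout libraries and 7.84, 63.4, 22.6, 57.5 and 29.7 TPM in the controls. Knockout replicates 2 to 4 exceeded all controls, while knockout replicate 1 exceeded only control replicate 1. Mean CCL7 was 127.0 ± 101.5 against 36.2 ± 23.6 TPM (SD, n = 4 and 5), a log2 difference of 1.46 ± 0.87 (SE; limma adjusted p = 0.745), and 1.02 ± 0.83 (SE; limma adjusted p = 0.673) without control replicate 1. It was 2.34 without knockout replicate 1 and 0.925 without knockout replicate 4.

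CCL12 measured 26.6, 193.2, 245.6 and 332.3 TPM across the knockouts against 41.0, 174.3, 66.5, 128.3 and 59.6 TPM across the controls. Knockout replicate 1 had the lowest value of all 9 libraries, and the other three knockouts the highest. Mean CCL12 was 199.4 ± 128.7 against 93.9 ± 55.6 TPM (SD, n = 4 and 5), a log2 difference of 0.81 ± 0.73 (SE; limma adjusted p = 0.745), and 0.56 ± 0.74 (SE; limma adjusted p = 0.826) without control replicate 1. It was 1.604 without knockout replicate 1, 0.41 without knockout replicate 4 and 0.18 with median-of-ratios scaling.

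CCL8, the CCR8 ligand, was the most abundant of the 10 and the only one with its highest control value in control replicate 1. For CXCL2 that library was below only control replicate 2 among controls. For CXCL9, CCL6 and CCL9 it was above control replicates 3 and 5. The knockouts had 218.9, 1450, 1971 and 4938 TPM of CCL8. The controls had 2216, 1418, 385.1, 660.3 and 400.1 TPM, so that the library with the lowest CXCL10, CXCL16, CCL2 and CCL7 had the highest control value of CCL8. CCL8 made up 92.0% of the summed TPM of the 10 genes in control replicate 1, 56.5% to 67.3% in the other controls, 62.0% to 76.4% in knockout replicates 2 to 4 and 24.6% in knockout replicate 1. Mean CCL8 was 2144 ± 2002 against 1016 ± 791.3 TPM (SD, n = 4 and 5), or 715.8 ± 484.7 TPM (SD, n = 4) in control replicates 2 to 5. Its log2 difference was 0.74 ± 0.82 (SE; limma adjusted p = 0.745), and 1.105 ± 0.86 (SE; limma adjusted p = 0.652) without control replicate 1. Single libraries moved this value: it was 1.6 without knockout replicate 1, 0.104 without knockout replicate 4, and 0.47 and 0.49 without control replicates 3 and 5.

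**Figure D3:**
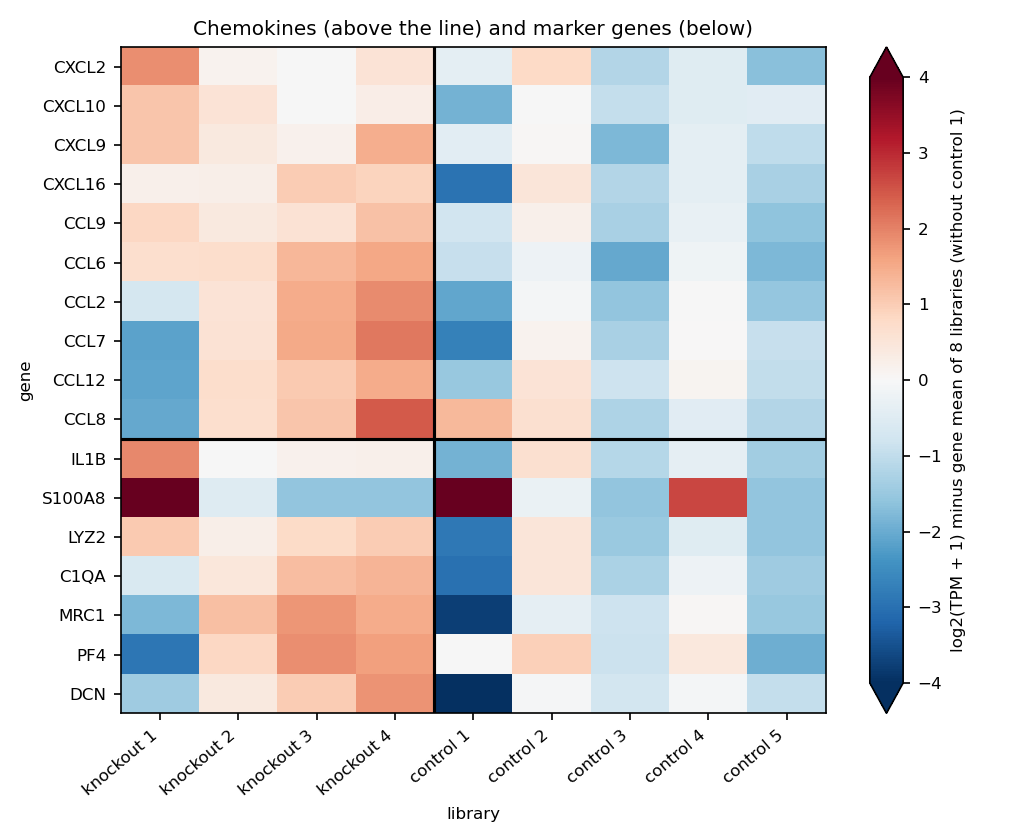
Log2(TPM + 1) of the 10 chemokines (above the line) and 7 marker genes (below) in each library, minus each gene's mean over the 8 libraries other than control replicate 1; red is above and blue below that mean. In knockout replicate 1, CXCL2, CXCL10 and IL1B are above and CCL7, CCL12, CCL8, MRC1 and PF4 below their means.

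Ordered by mean TPM over the 8 libraries without control replicate 1, CCL8 (1430 TPM) was followed by CCL6 (157.4), CCL12 (153.3), CXCL16 (134.1), CCL7 (85.1), CCL2 (79.4), CXCL2 (47.15), CXCL10 (40.2), CCL9 (22.3) and CXCL9 (17.2). CCL8 was above CCL6, and CXCL10 above CCL9, in all 8 libraries. The neighbours CCL6 and CCL12 were not in a constant order, with CCL6 higher in 3 of 8 libraries, nor were CXCL2 and CXCL10, with CXCL2 higher in 3 of 8. The remaining neighbours kept their order in 6 or 7 of the 8 libraries. TPM correct for transcript length, but other differences in how well each gene is measured were not tested. The level of CXCL16 is uncertain, as given above.

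Knockout replicate 1 set CXCL2 and CXCL10 apart from CCL2, CCL7, CCL8 and CCL12. It had the highest CXCL2 and CXCL10 of all libraries and, among knockouts, the lowest CCL2, CCL7, CCL8 and CCL12. The log2 ratio of CXCL2 to CCL2 was 1.97 there and between -2.17 and -1.05 in the other knockouts, and that of CXCL10 to CCL7 was 2.74 there and between -2.48 and -0.66 in the others. In control replicates 2 to 5 these ratios lay between -1.11 and 0.24 and between -1.16 and -0.165. Other transcripts differed in the same library. IL1B, an inflammatory cytokine of monocytes, stood at 364.7 TPM there and at 94.1 to 110.7 TPM in the other knockouts. The 6 neutrophil markers summed to 141.6 TPM against 11.7 to 14.4 TPM, with S100A8 at 62.3 TPM. PF4, a chemokine of platelets and of resident macrophages, was at 36.5 TPM against 498.4 to 1004 TPM, MRC1, the macrophage mannose receptor, at 7.49 TPM against 66.4 to 98.9 TPM, and the 7 fibroblast markers summed to 46.7 TPM against 175.2 to 370.3 TPM. Macrophage markers were not all low in this library: LYZ2 stood at 8176 TPM against 4638 to 8029 TPM in the other knockouts. CD14 stood at 148.2 TPM against 77.2 to 119.7 TPM. The 14 macrophage markers summed to 10590 TPM there and to 8843 to 15750 TPM in the other knockouts. The part of these other cells in the chemokine values was not tested.

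Markers of some other cells moved with the comparison too, but not those of all. All 14 monocyte and macrophage markers had a positive difference, with a median of 1.77 (1.26 without control replicate 1), 0 of them called. Their summed level was 8843 to 15750 TPM in knockout and 1030 to 9773 TPM in control libraries (2441 to 9773 TPM without replicate 1), led by LYZ2, a lysozyme of myeloid cells, and C1QA, C1QB and C1QC, complement subunits of macrophages. No macrophage marker was at 0 in any library. All 7 fibroblast markers had higher knockout means, and their sum was 46.7 to 370.3 TPM against 3.76 to 135.2 TPM, led by DCN and COL3A1, while 6 were tested, with a median difference of 1.41 (0.913 without control replicate 1) and 0 called. The 8 dendritic cell markers summed to 70.8 to 106.8 TPM and 24.0 to 83.1 TPM, and the 6 neutrophil markers to 11.7 to 141.6 TPM and 4.42 to 295.3 TPM. Median differences of the 6 tested dendritic cell, 3 neutrophil and 5 colon epithelium markers were 0.631, -0.745 and 0.498. The median of all genes was 0.456, with 86.7% of them above 0. Without control replicate 1 the medians were 0.474, 0.36 and 0.0659, and -0.0138 for all genes, with 47.5% above 0. Among 4 B cell markers MS4A1 was at 0 in all libraries and the sum reached at most 12.9 TPM, the 5 endothelial markers summed to 18.4 to 25.7 TPM and 1.14 to 27.3 TPM, and the 6 colon epithelium markers to 48.5 to 90.1 TPM and 11.3 to 169.7 TPM. Most of the endothelial sum was PECAM1, at 0.91 to 26.5 TPM over all libraries. EMCN, KDR and VWF reached at most 1.34 TPM, and CDH5, a defining gene of endothelium, was at 0.1 TPM or less. Of the 8 T cell markers 5 had a positive and 3 a negative difference with all libraries, with a median of 0.288, and all 8 had a negative one without control replicate 1, with a median of -0.23. In such sorted bulk RNA a change in the number of cells of a type and a change in RNA per cell cannot be told apart.

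Set against the macrophage markers, fewer of the chemokines had a higher mean in the knockout libraries. The mean log2(TPM + 1) of the 14 markers was 7.65 ± 0.79 in knockout libraries (SD, n = 4) and 5.88 ± 1.34 in controls (SD, n = 5), or 6.39 ± 0.81 (SD, n = 4) in control replicates 2 to 5. When this mean was subtracted in each library, 2 of the 10 chemokines kept a positive difference with 9 libraries and 5 of the 10 without control replicate 1, a calculation chosen after the values were seen and not tested. CCL6 remained higher, at -0.09 to 0.94 in knockouts against -1.01 to -0.16 in control replicates 2 to 5, but control replicate 1 was at 2.11. CXCL16 followed the markers closely, between -0.47 and 0.50 in all 9 libraries. CCL9 was at -2.92 to -2.78 in control replicates 2 to 5, with an SD of 0.0553 over these 4, and at -3.40 to -1.46 in knockouts. CCL12 was at 0.10, -0.32 and 0.15 in knockout replicates 2 to 4 and at -1.80 in knockout replicate 1, all below the controls, which lay between 0.17 and 1.55. Relative to the markers CCL8 was at 7.27 in control replicate 1 and at 1.2 to 4.04 in the other 8 libraries.

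**Figure D4:**
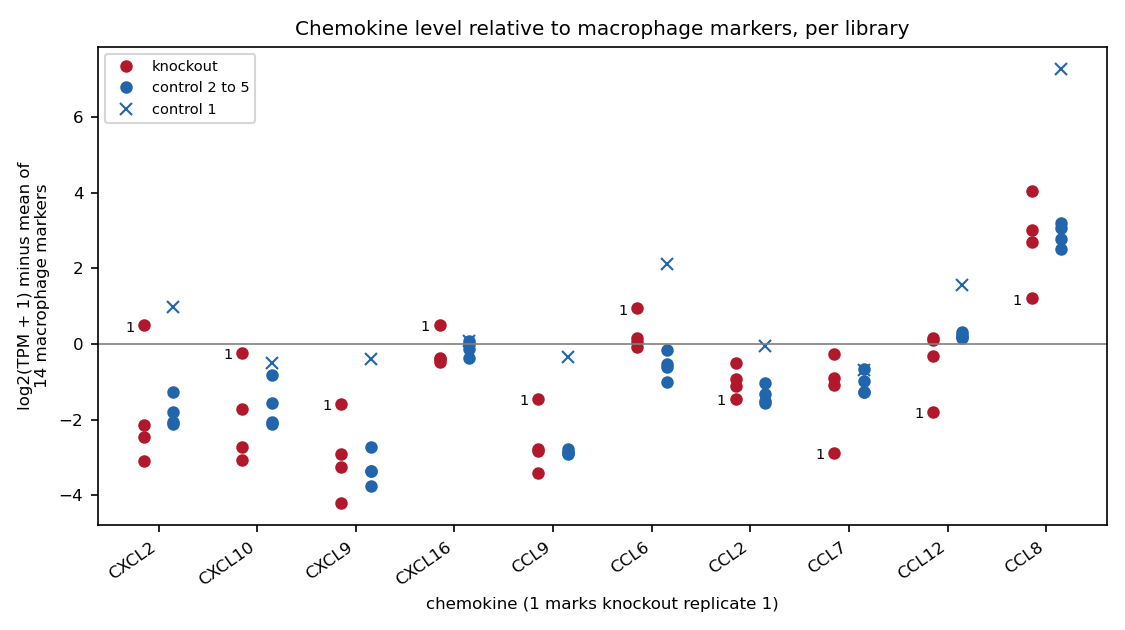
Log2(TPM + 1) of each chemokine minus the mean of 14 macrophage markers, per library; crosses are control replicate 1 and the digit 1 marks knockout replicate 1. Knockouts and control replicates 2 to 5 overlap for all but CCL6, higher in knockouts, and CCL12, lower in knockouts.

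The genes most alike in pattern were sought among all tested genes by Pearson r of log2(TPM + 1) over the 8 libraries without control replicate 1, as a description of libraries that also share the group difference. The mean of the 10 chemokines was matched best by ADAP2 (r = 0.99), SCPEP1 (0.988), PLTP (0.988), PDLIM4 (0.987) and TLR1 (0.985). For CXCL9 the closest were IIGP1 (0.991), an interferon-induced GTPase, and SMIM13 (0.982), and for CXCL10 ATG101 (0.971) and MS4A4C (0.969). CXCL2 was followed by IL1B (0.985) and NCF4 (0.979), a subunit of the phagocyte oxidase. CXCL16 was matched by CTSH (0.998), a lysosomal cathepsin, and CCR1 (0.997). CCL6 was closest to AXL (0.993), a receptor kinase of macrophages, and TNS3 (0.992), and CCL9 to PIRB (0.992) and TNFSF13 (0.988). CCL2 was matched by CBR3 (0.995) and PLTP (0.989), CCL7 by RCN3 (0.991) and MXRA8 (0.991), CCL8 by MS4A4D (0.993) and IGFBP4 (0.989), and CCL12 by TPM2 and PTRF (both 0.988).

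Receptors for these chemokines were measured in the same libraries, 7 of 9 passing the filter and 0 called in either fit. Their differences were positive for 6 and negative for 1 with all libraries, and positive for 4 and negative for 3 without control replicate 1, with medians of 0.74 and 0.013. CXCR3, the receptor of CXCL9 and CXCL10, stood at 223.4 to 299.2 TPM in knockout and 24.1 to 308.7 TPM in control libraries. CXCR6, the receptor of CXCL16 and the most abundant of the list, was at 385.5 to 660.8 TPM and 19.5 to 706.4 TPM. CCR2, the receptor of CCL2, CCL7 and CCL12, was at 71.5 to 138.8 TPM and 4.30 to 136.1 TPM. The lowest control value of each of these 3 was that of replicate 1. CCR1, the receptor of CCL6 and CCL9, had the largest difference of the list, 2.03 ± 0.81 (SE; limma adjusted p = 0.689), and 1.30 ± 0.37 (SE; limma adjusted p = 0.198) without control replicate 1.

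Of 7 atypical receptors and proteases that remove or cut chemokines, 4 passed the filter and 0 were called, all 4 with positive differences in both fits. ADAM10, which sheds CXCL16, stood at 39.4 to 53.2 TPM in knockout and 4.50 to 48.4 TPM in control libraries. ADAM17 was at 34.5 to 41.6 TPM and 1.57 to 29.9 TPM, without overlap, DPP4, which trims CXCL10, at 8.28 to 18.4 TPM and 1.02 to 13.6 TPM, and the scavenger ACKR3 at no more than 5.42 TPM.

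The other 27 chemokine genes, 19 of them tested, had a median difference of 0.65, with 15 positive, 4 negative and 0 called, and of 0.61 without control replicate 1, with 13 positive, 5 negative and 0 called. The most abundant had a lower knockout mean: CCL5, a chemokine of effector T cells, averaged 8979 ± 2043 TPM over knockouts against 20790 ± 13750 TPM over controls (SD, n = 4 and 5). Its log2 difference was -0.95, and -0.64 without control replicate 1. CCL4 and XCL1, also made by activated T cells, had differences of -0.61 and -0.32 (-0.62 and -0.45 without control replicate 1), and PF4 had 0.65 (0.71). None of these 4 was called, with limma adjusted p values of 0.745 to 0.786 with all libraries. T cell chemokines did not share 1 direction. CCL1, a CCR8 ligand of activated T cells named after its values were seen, had a difference of 1.42, and of 1.98 ± 0.35 (SE; limma adjusted p = 0.113) without control replicate 1. CCL3, named in the same way, had 0.05 (-0.33).

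Signalling genes upstream of these chemokines were not called either. In the interferon gamma list 8 of 9 differences were positive and 1 negative in both fits, with medians of 1.18 and 0.30. IFNGR1, a chain of the interferon gamma receptor, had a difference of 1.18 (0.37 without control replicate 1), and IRF1, a transcription factor that interferon induces, had 0.67 (0.04). IFNG itself averaged 104.7 ± 25.7 TPM over knockouts against 127.1 ± 71.2 TPM over controls (SD, n = 4 and 5), a difference of -0.10, and of -0.44 without control replicate 1. Of 15 tested genes of TNF, IL-1, Toll receptor and NF-kappa-B signalling, 14 were positive and 1 negative, with a median of 0.955, and without control replicate 1 13 were positive and 2 negative, with a median of 0.22. IL1B had a difference of 1.41 ± 0.60 (SE; limma adjusted p = 0.735), NFKBIA 0.40, TNFAIP3 1.21 and TNF -0.03. Without control replicate 1 these were 1.14, 0.16, 0.23 and -0.56, TNF with an unadjusted p of 0.0482 and a limma adjusted p of 0.386.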

How the data were processed

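RNA was measured in 9 libraries, 4 knockout and 5 control, grouped and numbered by their titles. The authors deposited 1 table of TPM values, per the file headers. GRCm38, RSEM 1.2.31, Bowtie2 2.2.9 and Trimmomatic 0.32 are listed per the submitters' processing notes, and their settings are not given in the sources used here. TPM hold no depth, so no counting error is given, and an abundant transcript lowers all others. Limma 3.58.1 in R 4.3.3 (lmFit, eBayes with trend) compared log2(TPM + 1) of all genes that reached 1 TPM in 4 or more libraries, with Benjamini-Hochberg adjustment over all of them at 0.05. Differences are knockout minus control, and a pseudocount of 1 understates those of low genes. The fit was tested on simulated data. The 10 genes and all lists were chosen with earlier results of these data known. From each list the up to 4 most abundant genes are named, from the cell lists only in part, beside the 2 closest genes of each chemokine, the 5 closest to their mean, and others singled out after their values were seen. Some of the genes this names are not reported here. The alternatives were pseudocounts of 0.1 and 5, no filter or 5 TPM, 2 scalings, robust variance, a replicate block, an exact permutation test and leaving out each library. Figures were drawn with matplotlib 3.10.9.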

Additional observations from a re-analysis of the deposited data

Results flagged for a closer look

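The highest and lowest library of each group was compared with its neighbours by Dixon's ratio for each of the 10 chemokines, their sum and 8 sums of cell markers, 38 groups in all. Chance alone flags about 5% of groups if values are normally distributed, which was not tested for these TPM. No chemokine and no sum of them had such a library, and 4 marker sums did. The largest ratio among the chemokines was 0.821, for CXCL2 in knockout replicate 1, just below the size that flags a library. Neutrophil markers summed to 141.6 TPM in knockout replicate 1, the next knockout being at 14.4 TPM, and to 295.3 TPM in control replicate 1, the next control being at 40.7 TPM. Knockout replicate 1 is also the library with the highest CXCL2 and the lowest CCL8. Colon epithelium markers summed to 169.7 TPM in control replicate 3, the library with the lowest CXCL9 and CCL6, with the next control at 43.9 TPM. T cell markers summed to 1889 TPM in control replicate 1, with the next control at 5381 TPM. What part these cells have in the chemokine values was not tested.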

How the results depend on the processing

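Each of the 10 chemokine differences stayed positive and uncalled under every alternative run. Genes called over the whole table numbered 2 in the first fit, 1 with a pseudocount of 5 or quantile normalization, 0 without a filter, with a filter of 5 TPM, with the exact permutation test per gene (846 at an unadjusted p under 0.05) or with the replicate block (750 at an unadjusted p under 0.05), 0 to 3 when 1 library was left out, and, without control replicate 1, 4 with median-of-ratios scaling added and 0 with the replicate block added. The replicate numbers share no stated origin, and deviations of same-numbered libraries correlated at -0.137 to -0.0166 with all libraries and at -0.207 to -0.0178 without control replicate 1. With the block, 4 of the 10 chemokines had an unadjusted limma p under 0.05, beside 750 of 11495 genes in either direction. These counts were 6 and 735 in the first fit, 1 and 786 with median-of-ratios scaling, and 3 and 959 with quantile normalization. With the block and without control replicate 1 they were 9 and 950 of 11457 genes. A library whose number occurs in 1 group only adds nothing to a blocked difference. This held for control replicate 5 in both blocked fits, and for knockout replicate 1 once control replicate 1 was out. Genes with no overlap numbered 446 higher and 121 lower in knockouts, 230 and 347 with median-of-ratios scaling, 389 and 408 with that scaling and without control replicate 1 (a setting added after the data were seen), and 446 became 459 to 1123 and 121 became 141 to 345 when 1 library was left out. Of the 10 chemokines 3 had no overlap, 0 with median-of-ratios scaling and 3 to 6 with 1 library left out. The cause of these shifts was not tested. The depth per library is unknown, and 4 against 5 libraries limit what can be called.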
